A study of Mus musculus with 2 samples.

Results

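Heat shock proteins and protein-folding chaperones were described in mouse lung on 2 arrays, 1 of wild-type and 1 of Rosa26-Foxm1 animals. The members were taken by symbol: the HSP70, HSP110, HSP90, small heat shock, HSP60 and HSP10 families, the J-domain proteins of the Dnaja, Dnajb and Dnajc series, the subunits of the chaperonin TRiC/CCT, the Pdia, Bag and Hsf families, and Tcp1, Calr, Canx, Ddit3, Atf4 and Atf6. This gave 77 genes among the 13840 that a probe carried alone. Of these 77, 64 were measured, meaning above a floor at the median normalised intensity of an array (1.00) on at least 1 array, and 61 were above it on both. Several of the best known members were not analysed here, because the probe table used gave no probe to them alone: Hspa1a, Hspa1b, Hspa8, Hspb1, Hsp90aa1, Hsp90ab1, Hsf1, Atf6 and Pdia3. No cytosolic HSP90 value was therefore obtained.

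Wild-type animals were male FVB/N. Rosa26-Foxm1 mice carry a Foxm1 transgene, by its name under the Rosa26 promoter, which is active in many cell types; neither their strain nor their sex was stated in the labels used. Both groups received 3-methylcholanthrene (15 µg/g) once and butylated hydroxytoluene, a lung tumour promoter, in 6 weekly injections (150 µg/g, then 200 µg/g), and lungs were taken 12 weeks after the carcinogen. Each array held left lobes of 3 mice pooled into 1 sample, so the groups have no spread between replicates, no test was possible, and every statement compares these 2 pools. In such whole-tissue pools, fewer cells of a type and less RNA per cell cannot be told apart.

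Chaperones bind unfolded proteins and keep them from aggregating. HSP70 proteins work in cycles of ATP hydrolysis driven by J-domain partners and reset by nucleotide exchange factors such as HSP110 and BAG proteins, and TRiC encloses actin and tubulin while they fold. In the endoplasmic reticulum (ER), BiP, GRP94, calreticulin, calnexin and disulfide isomerases fold secreted and membrane proteins, which lung epithelium makes in quantity as surfactant and secretoglobins. Heat shock factors induce the cytosolic set, and the unfolded protein response, through Atf6, Xbp1 and Atf4, induces the ER set.

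The chaperones differed little between the pools. Of the 64 measured members, 2 were higher by at least 1.5-fold in the Rosa26-Foxm1 pool (background 7.07% of measured genes) and 2 at least 1.5-fold lower (background 8.45%). Loess scaling gave 3 higher and 1 lower. The other 60 lay between, so that 6.25% of members were past 1.5-fold in either direction, against 15.5% of the 9518 measured genes. The median log2 difference, Rosa26-Foxm1 minus wild-type, was -0.06 over the members and -0.06 over all measured genes. At least 2-fold apart were 2 members, against 3.49% of measured genes. Dnajc15 and Dnajc16 were the higher pair, and Hspa12b and Dnajc11 the lower pair.

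The spread of the differences was smaller in the members than in the array as a whole. Their SD was 0.37 and their interquartile range 0.37 on the log2 scale, against 0.47 and 0.52 over all measured genes. The error of a single probe's difference, estimated from 317 genes with at least 2 measured probes, was 0.31 (0.37 for dimmer and 0.23 for brighter pairs), and it leaves out differences between mice. Closer to 0 than this probe SD were 70.3% of the members and 56.5% of all measured genes. Brighter probes differ less, and most members were bright. Among genes brighter than the 75th percentile on an array, 2 of 49 members (4.08%) were past 1.5-fold, against 11.8% of 5495 genes. Among the dimmer genes, 2 of 15 members (13.3%) were past it, against 20.6%. Whether these shares differ beyond chance was not tested.

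**Figure D1:**
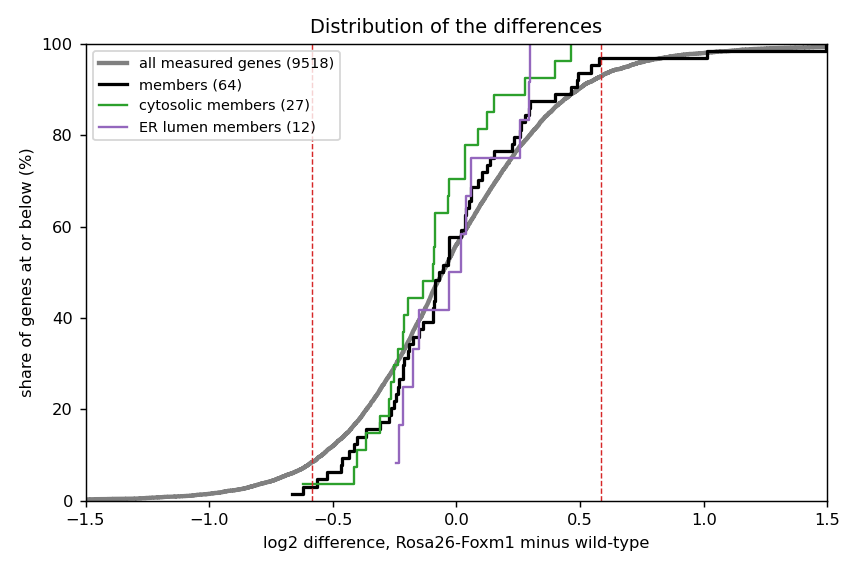
Cumulative share of genes (%) by log2 difference, Rosa26-Foxm1 minus wild-type, for all 9518 measured genes, the 64 measured members, the 27 cytosolic and the 12 ER lumen members. Dashed lines mark 1.5-fold; the axis ends at 1.5 on either side, and the ER lumen curve lies between -0.24 and 0.30.

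Cytosolic and ER members were set side by side. The 27 measured cytosolic members (HSP70, HSP110, small heat shock, cytosolic J-domain and TRiC genes) had a median of -0.10, with 8 above 0, 19 below, 1 at least 1.5-fold lower and none at least 1.5-fold higher. The 12 measured ER lumen members had a median of -0.0050, with 6 above 0, 6 below and none past 1.5-fold in either direction. The medians were 0.09 apart, and the 2 ranges overlapped, from -0.62 to 0.46 in the cytosol and from -0.24 to 0.30 in the ER. Of all measured genes, 56.0% were below 0. The gap between the medians was between 0.0072, when the 75th percentile was the floor, and 0.13, when the small heat shock proteins were left out; it was 0.06 with median scaling.

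**Figure D2:**
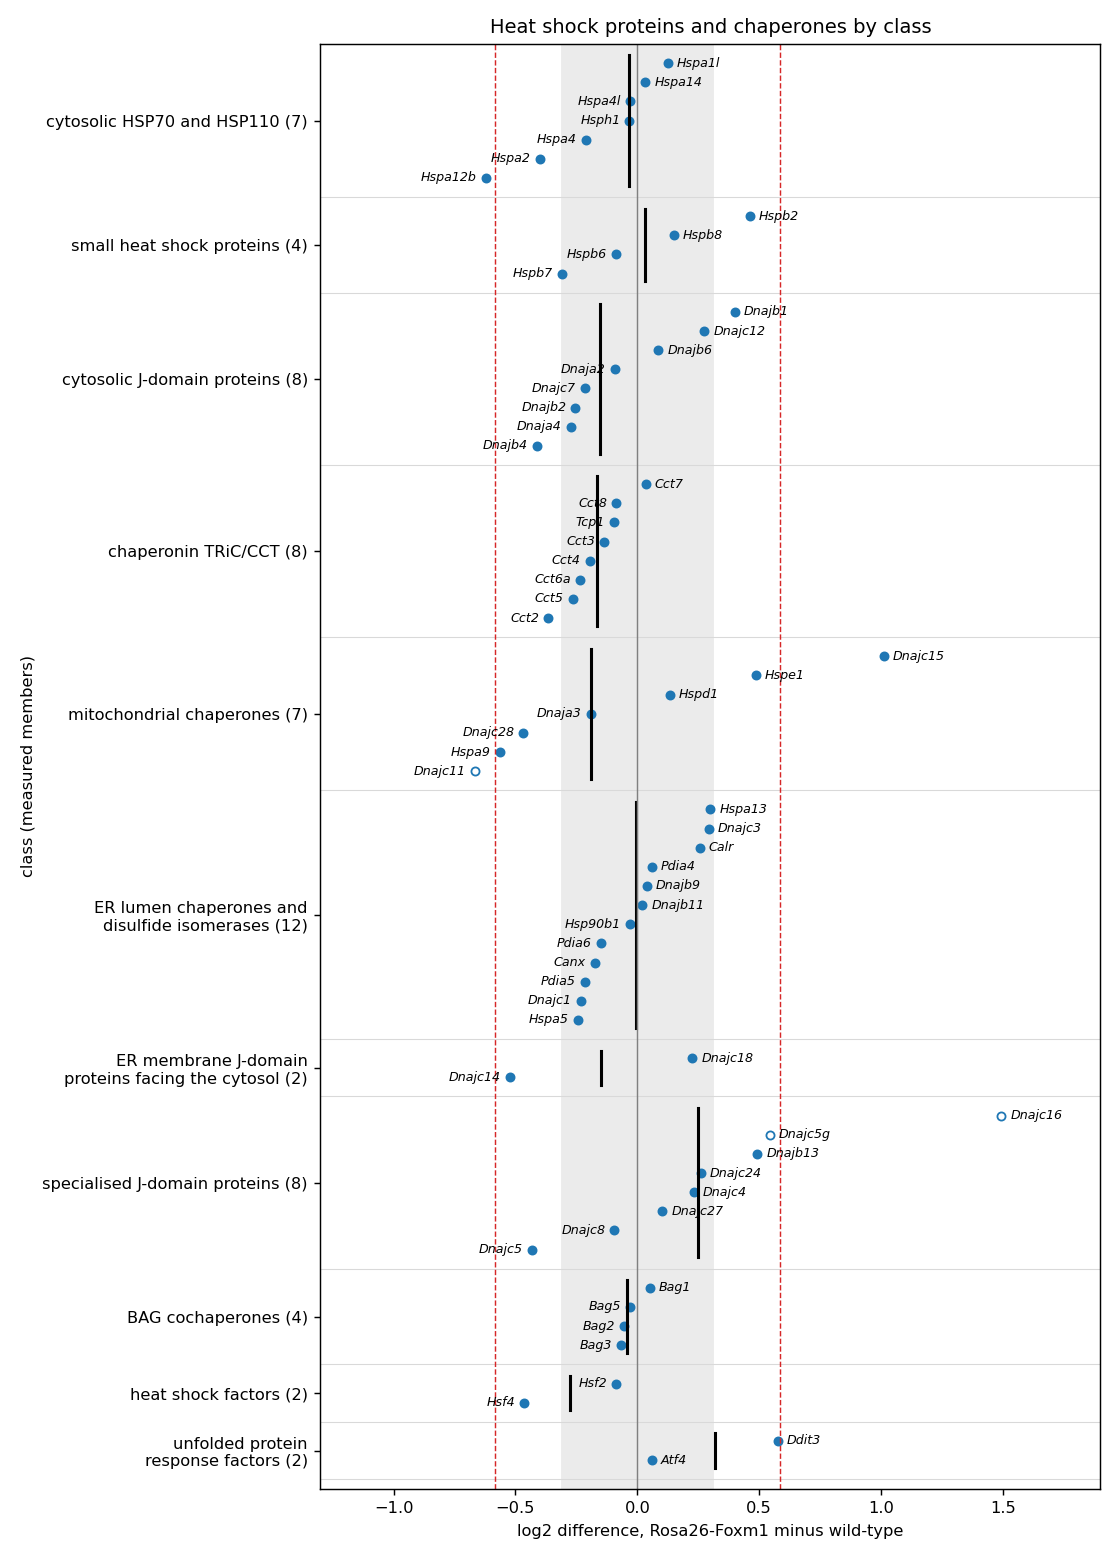
Log2 difference, Rosa26-Foxm1 minus wild-type, of each of the 64 measured members by class. Open points had 1 array below the floor, bars are class medians, grey is within 1 probe SD (0.31) and dashed lines mark 1.5-fold; all 12 ER lumen members lie in the grey band.

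In the ER lumen, the HSP70 protein BiP (Hspa5), which also holds the stress sensors inactive, gave 277 (normalised intensity) for wild-type against 234 for Rosa26-Foxm1, a difference of -0.24 on the log2 scale. GRP94 (Hsp90b1), the ER form of HSP90, was at 52.8 and 51.7 (-0.03). Among the lectin chaperones, which hold glycoproteins through their sugars, calreticulin (Calr) was at 32.0 and 38.1 (0.26) and calnexin (Canx) at 207 and 183 (-0.18). These 4 values went both ways, and each was smaller than the probe SD.

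The ER J-domain proteins that serve BiP were as close. Dnajc3, which also restrains the kinase PERK, was at 18.3 and 22.5 (0.29), and Dnajc1, which recruits BiP to translating ribosomes, at 87.0 and 74.0 (-0.23). Dnajb11 (0.02) and the degradation cofactor Dnajb9 (0.04) were close to 0. Hspa13, an ER relative of HSP70, was at 3.05 and 3.76 (0.30), above Dnajc3 in this scaling and below it with median or loess scaling. The disulfide isomerases Pdia4 (0.06), Pdia6 (-0.15) and Pdia5 (-0.22) lay on both sides of 0. BiP moved with the scaling, from -0.24 to -0.06 with median scaling, where Pdia5 and Dnajc1 lay below it.

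The ER stress response element, with the letters CCAAT, then 9 bases of any kind, then CCACG, is bound by Atf6 with NF-Y and marks promoters of the unfolded protein response. RefSeq promoter windows of 300 bases (250 before and 50 after an annotated start, build GRCm38.p6) were matched for 67 of the 77 members. The element was found, on either strand, in 6 members, all of the ER lumen class, and in 0.119% of all 32851 windows. The matches are shown with 10 bases on each side, written along the gene's strand, with the element in capitals; it runs in reverse in Calr and in the second Hsp90b1 match.

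Hspa5 (chr2:34772015-34772053, plus strand): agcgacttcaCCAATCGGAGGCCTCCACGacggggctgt
Calr (chr8:84847065-84847103, minus strand): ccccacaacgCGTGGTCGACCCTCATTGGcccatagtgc
Canx (chr11:50325790-50325828, minus strand): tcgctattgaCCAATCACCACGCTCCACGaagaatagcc
Pdia6 (chr12:17266481-17266519, plus strand): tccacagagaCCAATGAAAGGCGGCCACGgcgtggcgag
Dnajc3 (chr14:118937817-118937855, plus strand): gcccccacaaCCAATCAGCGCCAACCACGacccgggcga
Hsp90b1, first (chr10:86705628-86705666, minus strand): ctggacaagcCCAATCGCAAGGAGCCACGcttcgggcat
Hsp90b1, second (chr10:86705523-86705561, minus strand): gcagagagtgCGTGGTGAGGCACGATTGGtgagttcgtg

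The 6 genes thus share letters of 1 element. Their differences were those given above, from -0.24 in Hspa5 to 0.29 in Dnajc3, with 2 above 0 and 4 below; with median scaling Hsp90b1 turned to 0.02. The 250 bases before the Hspa5 start (chr2:34771840-34772089, plus strand) are shown whole, since this is the standard reporter promoter of the response, with the match in capitals.

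Hspa5 promoter: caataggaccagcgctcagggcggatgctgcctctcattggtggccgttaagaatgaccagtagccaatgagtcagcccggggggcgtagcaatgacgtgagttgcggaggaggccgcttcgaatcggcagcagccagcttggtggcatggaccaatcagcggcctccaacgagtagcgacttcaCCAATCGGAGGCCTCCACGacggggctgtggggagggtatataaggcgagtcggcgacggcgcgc

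Of the transcription factors of the response taken by the rule, Ddit3 and Atf4 were measured. Ddit3 encodes CHOP, which is induced by prolonged ER stress and by Atf4. Its probe was at 13.0 for wild-type against 19.4 for Rosa26-Foxm1, which is 0.58 on the log2 scale (1.49-fold), just short of 1.5-fold. With median scaling, the deposited values or loess scaling it was past that size, up to 0.63. Atf4 itself, which is controlled mainly at translation, was at 96.5 and 101 (0.06).

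Genes outside the rule that sense ER stress or answer to it were more spread than the ER lumen members that the rule took. Among 24 that were measured, 4 were higher by at least 1.5-fold and none was lower by as much, with a median of 0.09. These 4 are 16.7% of the list, near the 15.5% of all measured genes past 1.5-fold in either direction, and with median scaling there were 3. The 4 act in the disposal and entry of ER proteins. Edem1, which marks misfolded glycoproteins for degradation, was at 26.6 and 42.7 (1.60-fold), and Sel1l, a subunit of a ubiquitin ligase complex, at 2.20 and 3.43 (1.56-fold). Sec61b, of the translocation channel, and Derl3, of the retrotranslocation machinery, were both 1.54-fold higher. Sec61b was at 17.3 and 26.7, and Derl3 was near the floor, at 1.63 and 2.51. The lowest were Herpud1 (-0.56), which belongs to the same ubiquitin ligase complex, Txndc11 (-0.54) and the BiP exchange factor Hyou1 (-0.40). Degradation genes thus lay on both sides of 0, and Xbp1 was at -0.14. The list also holds ER folding proteins whose symbols the rule does not take, among them Hyou1 and the disulfide isomerase P4hb (-0.19).

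Secretory cells of the immune system carry much of this machinery. Of 9 plasma cell markers, all measured, 4 were at least 1.5-fold higher and 1 lower. That is 55.6% past 1.5-fold, against 15.5% of all measured genes. The summed normalised intensity of the 9 was 291 for wild-type against 636 for Rosa26-Foxm1. Without Jchain, the joining chain of secreted immunoglobulins (49.3 and 411), the sum of the other 8 markers was 242 against 226, the opposite direction. Mzb1 (5.80 and 17.5) and Tnfrsf17 (at least 2.21-fold, wild-type below the floor) were among the higher markers, and Sdc1 was at -0.60. Xbp1 and Derl3 belong to both lists. Lung epithelium secretes as well. Over 6 measured markers of alveolar type II cells the sums were 4783 for wild-type and 4699 for Rosa26-Foxm1. Of these markers 2 were above 0 and 4 below, with a median of -0.30. Without Sftpa1 the sums of the other 5 were 3547 and 2942. Over 6 measured markers of club cells they were 6694 and 4912, with 1 above 0. The part of plasma cells or epithelium in the ER values was not tested.

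Targets of Atf4 and CHOP did not move as a block. Of 10 measured, 2 were at least 1.5-fold higher and none lower, and the median was -0.01. That is 20.0% of the list past 1.5-fold in either direction, against 15.5% of all measured genes. Atf3, a stress-induced repressor, was at 11.0 and 24.4 (2.21-fold), and the cystine transporter Slc7a11 was higher by at least 1.95-fold, its wild-type value being below the floor. Psat1 (0.53), Sesn2 (0.15) and Phgdh (0.07) were also above 0. The phosphatase subunit Ppp1r15a (-0.32), Vldlr (-0.30), Cebpb (-0.14), Chac1 (-0.14) and the asparagine synthetase Asns (-0.10) were below 0. With median scaling the median of the list was 0.06.

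**Figure D3:**
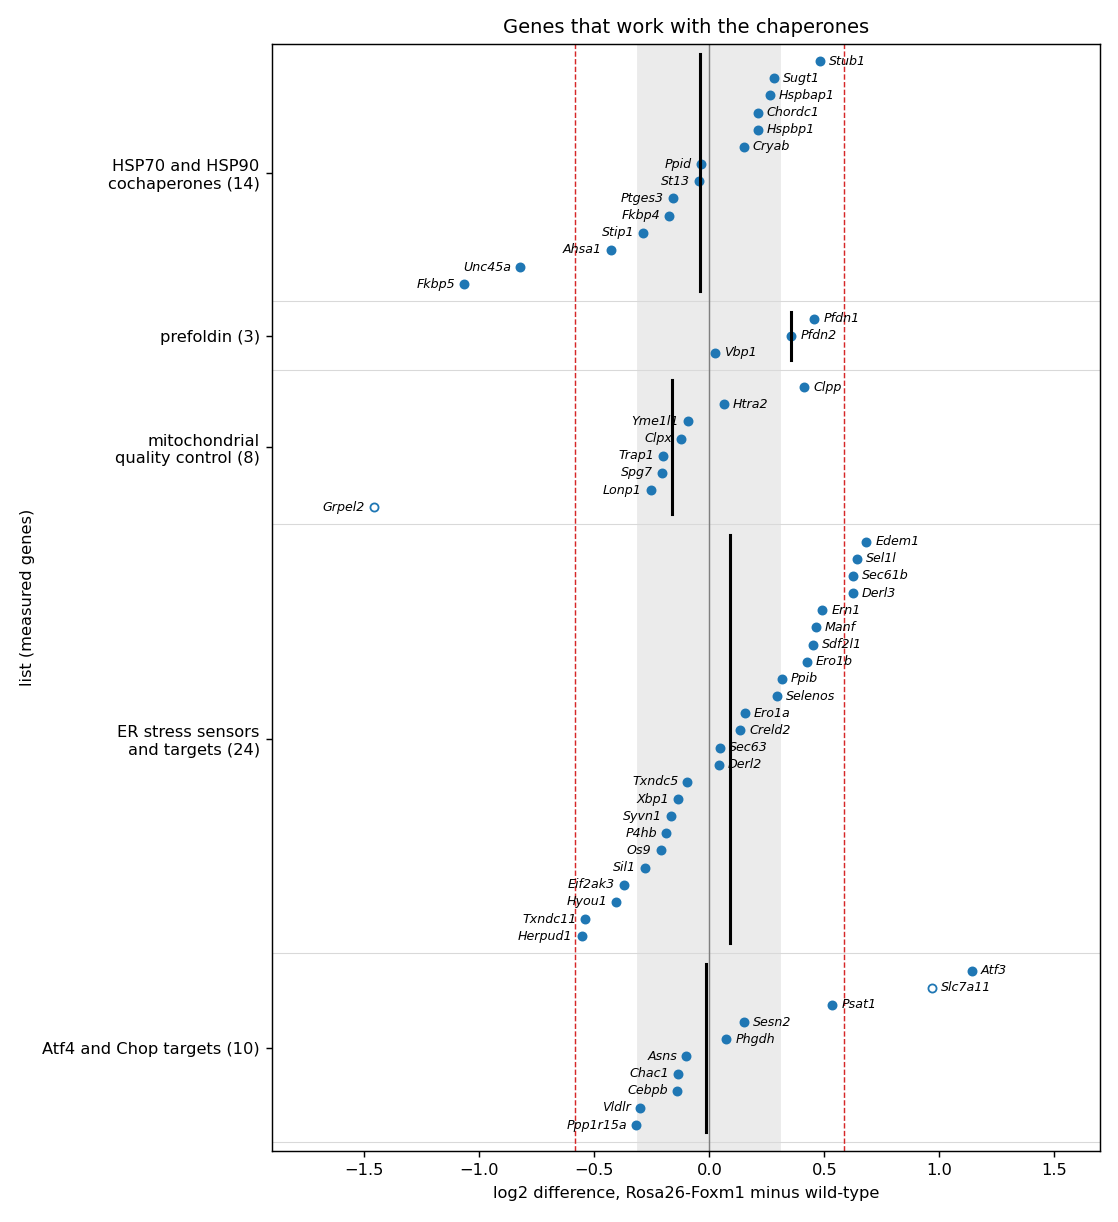
Log2 difference, Rosa26-Foxm1 minus wild-type, of genes outside the rule that work with the chaperones, by list (59 measured genes). Marks are as in the plot of members by class. The ER stress genes run from -0.56 to 0.68, wider than the ER lumen members that the rule took.

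In the cytosol, 7 of the HSP70 and HSP110 genes were measured, with a median of -0.03. Hspa12b, an atypical HSP70 known from endothelial cells, was at 23.5 for wild-type against 15.3 for Rosa26-Foxm1 (-0.62, or 1.54-fold lower); with loess scaling it was at -0.58, just short of the size counted. Hspa2, best known from spermatogenesis, was at 10.1 and 7.66 (-0.40). The stress-inducible exchange factor Hsph1 was at 19.6 and 19.1 (-0.03), and its relatives Hspa4 and Hspa4l were at -0.21 and -0.03. Hspa14, which acts at the ribosome, was at 0.03 and Hspa1l, close to the floor at 1.14 and 1.25, at 0.13.

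The endothelial markers chosen for comparison were mostly lower on the same array. Of 10 markers, all measured, 7 were at least 1.5-fold lower and none higher, with a median of -0.87. That is 70.0% past 1.5-fold, against 15.5% of all measured genes. The summed intensity of the 10 was 2077 for wild-type against 1278 for Rosa26-Foxm1. None of the 10 was below the floor, and Vwf was the 1 above 0 (0.49). The part of the endothelium in the Hspa12b value was not tested.

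Among 8 measured cytosolic J-domain proteins, none was past 1.5-fold in either direction, and the median was -0.15. Dnajb1, the main stress-inducible partner of HSP70, was the highest, at 29.1 and 38.3 (0.40). Dnajc12, a partner of the aromatic amino acid hydroxylases, was at 0.28 and Dnajb6, a suppressor of aggregation, at 0.09. Dnajb4 (-0.41), Dnaja4 (-0.27) and Dnajb2 (-0.25) were the lowest, and Dnaja2 (-0.09) and Dnajc7 (-0.21) lay between. Dnaja1 was not above the floor on either array (deposited intensities 0.969 and 0.572).

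The small heat shock proteins hold unfolded proteins without ATP, and several of them, though not all, are expressed mostly in muscle. Hspb2 was at 1.81 and 2.50 (0.46), Hspb8, which works with Bag3, at 22.6 and 25.1 (0.15), Hspb6 at 11.1 and 10.4 (-0.09) and Hspb7 of heart muscle at 25.1 and 20.3 (-0.31). Of 9 measured cardiac muscle markers, from the heart muscle around pulmonary veins, 2 were past 1.5-fold, Myh6 and Ttn, both in the lower direction. Their share, 22.2%, stands beside 15.5% for all measured genes. By sign, 4 of the 9 markers were above 0 and 5 below. The summed intensities of the 9 were 1016 for wild-type and 756 for Rosa26-Foxm1. Without Myh6 (376 and 193) the sums of the other 8 lay closer, at 640 and 562. Of 7 measured smooth muscle markers none was past 1.5-fold either way, with sums of 322 and 288. The part of muscle in these values was not tested. Cryab, a small heat shock protein whose symbol the rule does not take, was at 171 and 190 (0.15).

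Most subunits of TRiC were slightly lower in the transgenic pool. All subunits of the ring except the testis form Cct6b were measured, and 7 of 8 were below 0, with a median of -0.17 and a range from -0.37 (Cct2) to 0.03 (Cct7). Cct2 was at 297 for wild-type against 230 for Rosa26-Foxm1, Cct5 at 243 and 202 (-0.27) and Cct6a at 174 and 148 (-0.24). Cct4 (-0.20), Cct3 (-0.14), Tcp1 (-0.10) and Cct8 (-0.09) followed. None was past 1.5-fold in either direction, and 7 of the 8, all but Cct2, were within the probe SD. With median scaling the median was -0.07, and Cct3 and Cct8 turned above 0, leaving 5 of 8 below; loess scaling gave -0.12, with 7 of 8 below. The genes brighter than the 75th percentile had a median of -0.07 as a whole. Prefoldin hands actin and tubulin to TRiC, and its 3 measured subunits were above 0: Pfdn1 at 0.46, Pfdn2 at 0.36 and Vbp1 at 0.02.

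Heat shock elements, the binding sites of the Hsf factors, are GAA units in alternating orientation. The letters GAA, TTC and GAA, with 2 bases of any kind between units, were found, on either strand, in windows of 4 members, Hspd1, Hspe1, Hsph1 and Dnajb6, and in 0.603% of all windows. All 4 were measured, and none was past 1.5-fold. The Hsph1 match, read along the gene as TTCTGGAAAGTTC, lies just after the annotated starts. The Dnajb6 match lies before them and is written with its flanks.

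Dnajb6 (chr5:29735842-29735874, plus strand): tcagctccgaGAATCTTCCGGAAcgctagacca

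Hspd1 and Hspe1 encode HSP60 and its lid HSP10, the chaperonin of the mitochondrial matrix. They are read in opposite directions from neighbouring starts, and their windows share the same pair of overlapping elements. The 250 bases before the Hspe1 start (chr1:55087898-55088147, plus strand) are shown because 1 stretch of DNA serves both genes. The overlapping elements are in capitals.

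Hspe1 promoter: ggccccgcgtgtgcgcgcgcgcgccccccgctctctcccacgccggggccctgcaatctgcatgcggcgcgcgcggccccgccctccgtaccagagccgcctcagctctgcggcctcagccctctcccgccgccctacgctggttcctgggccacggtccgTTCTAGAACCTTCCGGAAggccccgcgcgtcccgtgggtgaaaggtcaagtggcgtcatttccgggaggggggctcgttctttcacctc

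Hspe1 was at 54.0 for wild-type against 75.6 for Rosa26-Foxm1 (0.49). Hspd1 had 3 measured probes, and the brightest was at 36.6 and 40.1 (0.13). The other two gave 0.20 and -0.14, so the probes of this gene were not of one sign. Both genes stood above 0 by their brightest probes, Hspe1 by more than the probe SD.

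The mitochondrial class was widely spread, with an SD of 0.62 and values from -0.67 to 1.01 over 7 measured members. Dnajc15, also called MCJ, is an inner membrane J-domain protein that restrains respiratory complex I. As deposited, its intensities were 12.6 for wild-type and 25.9 for the transgenic pool, and after normalisation it was 2.02-fold higher, by 1 probe. This was the largest difference among the members above the floor on both arrays, and it stayed between 1.01 and 1.06 on the log2 scale under every alternative run. At the other end, Hspa9, mortalin, the HSP70 of the matrix and of the import motor, was at 24.1 and 16.3 (-0.56, 1.48-fold). Dnajc11, a cristae protein, was at least 1.59-fold lower, with Rosa26-Foxm1 below the floor, and both its deposited intensities, 1.62 and 0.928, were near the floor. Dnajc28, near the floor at 1.54 and 1.11, was at -0.47 and Dnaja3, a partner of Hspa9, at -0.19.

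Matrix proteases and further mitochondrial chaperones gave a median of -0.16 over 8 measured genes, with none at least 1.5-fold higher and 1 lower. That is 12.5% past 1.5-fold, near the 15.5% of all measured genes. Grpel2, an exchange factor of Hspa9, was at least 2.75-fold lower (Rosa26-Foxm1 below the floor), and Grpel1, its main counterpart, was not above the floor on either array. The protease subunit Clpp (0.41) was the highest, and Trap1, the mitochondrial HSP90, was at -0.20.

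**Figure D4:**
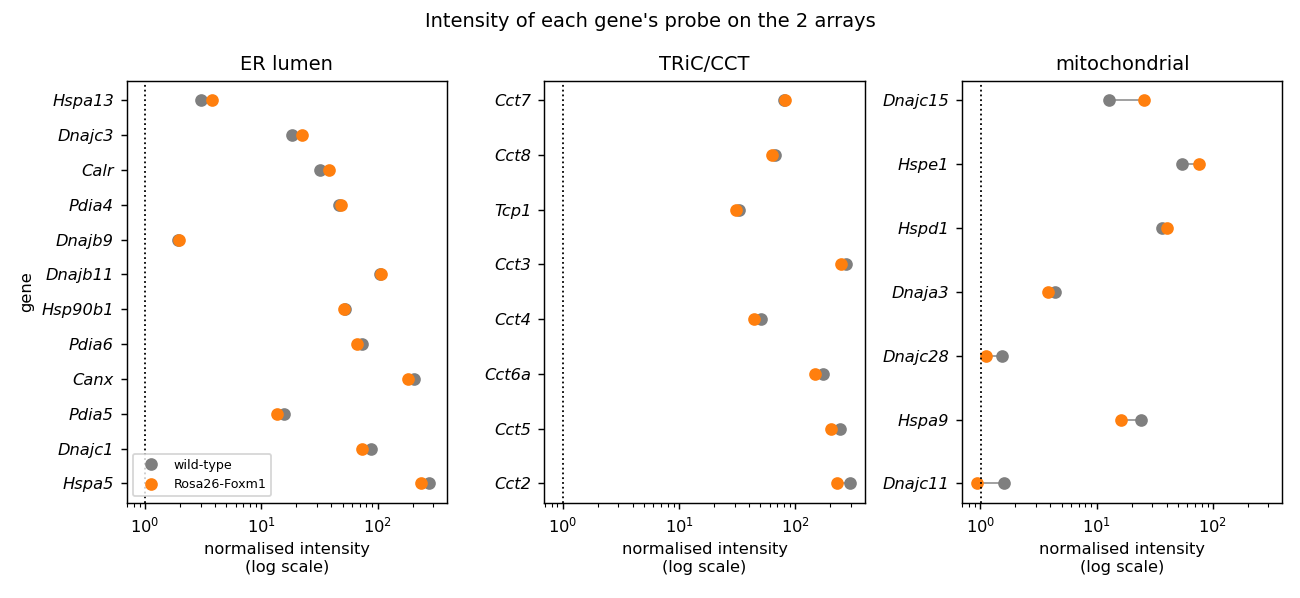
Normalised intensity (log scale) of each gene's brightest probe on the wild-type (grey) and Rosa26-Foxm1 (orange) array for the ER lumen, TRiC and mitochondrial members; the dotted line is the floor. The ER lumen pairs nearly coincide, while Dnajc15, Hspe1, Hspa9 and Dnajc11 are apart.

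J-domain proteins with specialised tasks were the class with the highest median among those of more than 2 measured members, 0.25 over 8 genes, 6 of them above 0. Dnajc16 was at least 2.81-fold higher, with deposited intensities of 0.671 for wild-type, below the floor, and 2.78 for the transgenic pool. It rests on 1 dim probe and is a bound. Dnajc5g was at least 1.46-fold higher, also from below the floor (0.478 and 1.44). Dnajc5, the cysteine string protein of secretory vesicles, was lower by both its probes, at -0.43 and -0.26. Dnajc24, of diphthamide synthesis, was at 0.26, Dnajc4 at 0.23, Dnajc27 at 0.10 and the splicing-associated Dnajc8 at -0.09.

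Dnajb13, a radial spoke protein of motile cilia, was at 2.23 and 3.14 (0.49). Of 5 measured ciliated cell markers 2 were at least 1.5-fold higher and none lower, with summed intensities of 83.8 and 92.3. That is 40.0% past 1.5-fold, against 15.5% of all measured genes. Foxj1 was at 0.09. The part of ciliated cells in the Dnajb13 value was not tested. In the ER membrane, Dnajc14 was at 20.4 and 14.2 (-0.52, 1.44-fold) and Dnajc18 at 0.23.

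Among classes with at least 4 measured members, the BAG proteins differed least. BAG proteins release substrates from HSP70, and the 4 measured were between -0.07 (Bag3, the stress-inducible form) and 0.05 (Bag1), with Bag5 at -0.03 and Bag2 at -0.06. Hsf2 was at 3.90 and 3.68 (-0.09) and Hsf4, known from the lens, at 2.01 and 1.46 (-0.46), near the floor. The list of HSP70 and HSP90 cochaperones outside the rule also held Cryab, the small heat shock protein given above. Of the 14 measured genes of this list, none was at least 1.5-fold higher and 2 were lower. That is 14.3% past 1.5-fold, near the 15.5% of all measured genes. The median was -0.04 and turned to 0.02 with median scaling. Fkbp5, an HSP90 cochaperone of steroid receptors and a glucocorticoid target, was at 2.56 and 1.22 (2.09-fold lower), and Unc45a, the myosin chaperone, at 2.64 and 1.49 (1.77-fold lower), both near the floor. The HSP90 activator Ahsa1 was at -0.43, and the ubiquitin ligase Stub1, which sends HSP70 clients to degradation, at 0.48.

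The remaining 13 members were not above the floor on either array: Hspa12a, Hspb3, Dnaja1, Dnajb3, Dnajb5, Dnajb7, Dnajb8, Dnajc5b, Dnajc6, Dnajc9, Cct6b, Cct8l1 and Hsf3. Several of these are known from testis or nerve, and no difference is given for them. The tissue label was borne out by bright lung genes, with Sftpc at 1228 and 856, Sftpa1 at 1236 and 1757, and Scgb1a1 at 2529 and 1767.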

How the data were processed

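RNA of 2 pools of lung tissue was measured on 1-colour arrays, made with digoxigenin-labelled cRNA per the labels' protocols. The authors deposited linear probe intensities with a median of 1.00 on both arrays; image software, background correction and scaling: not given in the sources used here. Of 33012 probes, 14411 had 1 gene in the platform annotation, updated by gene ID to RefSeq symbols (GRCm38.p6). The 2 arrays' log2 intensities were brought to common quantiles, the 50th percentile served as a floor for lower values, and each gene took the value of its brightest probe on average. A fold from below the floor is a bound. Promoters came from RefSeq tables of GRCm38.p6; probe sequences were not used, so probe targets were not checked. With 1 array a group no p-value was computed, and precision is limited by the number of arrays. Members and lists were chosen with earlier results of these data known. The split by brightness and the marker sums without 1 gene were chosen after seeing the data. Such sums left out, in each marker list, the gene whose intensity differed most between the arrays. Those without Jchain, Sftpa1 and Myh6 are given. Values are given for all 64 measured members and, in the lists outside the rule, mostly for genes at either end. Calculations used Python 3.11.15, numpy 2.4.6 and pandas 2.3.3, and the scripts were tested on simulated data. As alternatives, values were scaled by the median, by loess (span 0.3) or not at all, and floors lay at the 25th or the 75th percentile or were left out. Further alternatives were the median over probes and the cytosolic class without small heat shock proteins.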

Additional observations from a re-analysis of the deposited data

How the results depend on the processing

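The median over all members was -0.06, and -0.018 with median scaling, -0.018 with the deposited values and -0.020 with loess scaling. The count of members at least 1.5-fold lower was 2, and 1 with loess scaling, 4 with the floor at the 25th percentile and 1 with it at the 75th percentile. The count at least 1.5-fold higher was 2; it was 3 with median scaling, the deposited values, loess, the 25th percentile floor and no floor, and 1 with the floor at the 75th percentile. That floor removed Dnajc11 and Dnajc16 from the measured genes. With the 25th percentile floor 75 members were measured. Of these 9.33% were past 1.5-fold in either direction, against 23.4% of all measured genes. With the 75th percentile floor 49 members were measured, and the shares were 4.08% and 9.54%. Without a floor they were 7.81% and 20.6%, with median scaling 7.81% and 15.6%, and with loess 6.25% and 15.4%. Of the 4 genes past 1.5-fold, all 4 were past it with median scaling, the deposited values, the 25th percentile floor, no floor and the median over probes, and 3 with loess. None of the 4 changed sign under an alternative that measured it. Sign changed in 5 of 64 members with median scaling or the deposited values and in 3 with loess. No paired analysis was possible because each group has 1 array. The number of arrays and the brightness of a probe over the floor limit what could be seen.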

Other observations

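Immediate early genes, which tissue handling and acute stress switch on within minutes, were measured in full. None of the 13 was at least 1.5-fold higher or lower with the floor at the median, and the median difference was 0.02. With no floor, or with it at the 25th percentile, 1 was at least 1.5-fold lower. Jun was at 156 for wild-type against 105 for Rosa26-Foxm1 (-0.57), and Zfp36 at -0.17. Fosb (1.16 and 0.602) was below the floor in Rosa26-Foxm1, so that its -0.21 is a bound. Btg2 (0.25), Ier3 (0.24) and Dusp1 (0.24) were above 0.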
